A study of Homo sapiens with 12 samples.

Results

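The data compared here are the RNA profiles of 3 libraries of 624Mel cells that received both an siRNA against MITF and interferon gamma (siMITF + IFNγ) and 3 libraries that received a control siRNA and no interferon (siCTRL). 624Mel is an established human melanoma cell line. All cells were reverse transfected with siRNA, and in the IFNγ conditions the cytokine was added 24 h after transfection at 5 ng/mL and left on for 24 h before harvest. The other 6 of the 12 libraries, siMITF alone and siCTRL + IFNγ, shared the fit and are used where a gene is set beside the single treatments. A knockdown by siRNA is transient and incomplete, and the cells are 1 line. The study's methods describe its experiments in general as repeated in independent biological replicates, and the labels number the libraries of a condition 1 to 3.

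The values are TPM per Ensembl gene ID, a transcript abundance corrected for transcript length and scaled within each library. The deposited values summed to between 975336 and 982254 TPM in the siCTRL libraries and between 981293 and 982632 TPM in siMITF + IFNγ. Fold changes are differences of mean log2(TPM + 1), which understate the change of weakly expressed genes. A gene ID was tested when its mean reached 2 TPM in either condition, which left 12568 of 40173 gene IDs. It was called changed with a limma adjusted p under 0.05 and a log2 fold change of at least 1 in size. The comparison called 1118 gene IDs, of which 400 were lower and 718 were higher in siMITF + IFNγ. The functions of the lowered genes are the main subject here.

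MITF is the transcription factor that maintains the melanocyte programme. It binds E-box sequences, among them CATGTG and CACGTG, near genes for pigment synthesis, melanosome movement, survival and the cell cycle. Interferon gamma signals through JAK kinases and STAT factors, raises antigen presentation and chemokine genes, and slows the division of many cell types. Loss of MITF in melanoma cells is known as dedifferentiation, and the study asked how such cells respond to IFNγ.

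The 400 lowered gene IDs made up 3.18% of those tested, and the 718 higher ones made up 5.71%. At an adjusted p under 0.05 without the fold limit, 2986 gene IDs (23.8%) were lower and 2652 (21.1%) were higher. The falls were mostly moderate. Of the 400, 343 fell 2-fold to 4-fold, 57 fell at least 4-fold and 15 at least 8-fold, with a median log2 fold change of -1.34 and quartiles of -1.69 and -1.13. In 399 of the 400 every siMITF + IFNγ library lay below every siCTRL library, which held for 29.8% of all tested gene IDs. Genes named below as the deepest falls, on the log2 or the TPM scale, had to meet this. Their lack of overlap is therefore no result.

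The median level of the lowered genes in siCTRL was 27.7 TPM, against 19.8 TPM over all tested gene IDs and 2.52 TPM for those raised. The filter and the call shape this order, since a lowered gene had to be expressed in siCTRL while a raised one could enter through siMITF + IFNγ alone. Together the lowered gene IDs summed to 38890 TPM in siCTRL and 12901 TPM in siMITF + IFNγ. In bulk RNA such as this, fewer cells of a kind cannot be told apart from less RNA per cell. Of the 400, 359 were annotated as protein coding, 20 as pseudogenes and 21 were not in the annotation used. In siMITF + IFNγ, 83 had a mean below 2 TPM. Just inside the fold limit lay LIX1L at -1.001 on the log2 scale, and just outside it HSD17B14 at -0.9996.

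**Figure D1:**
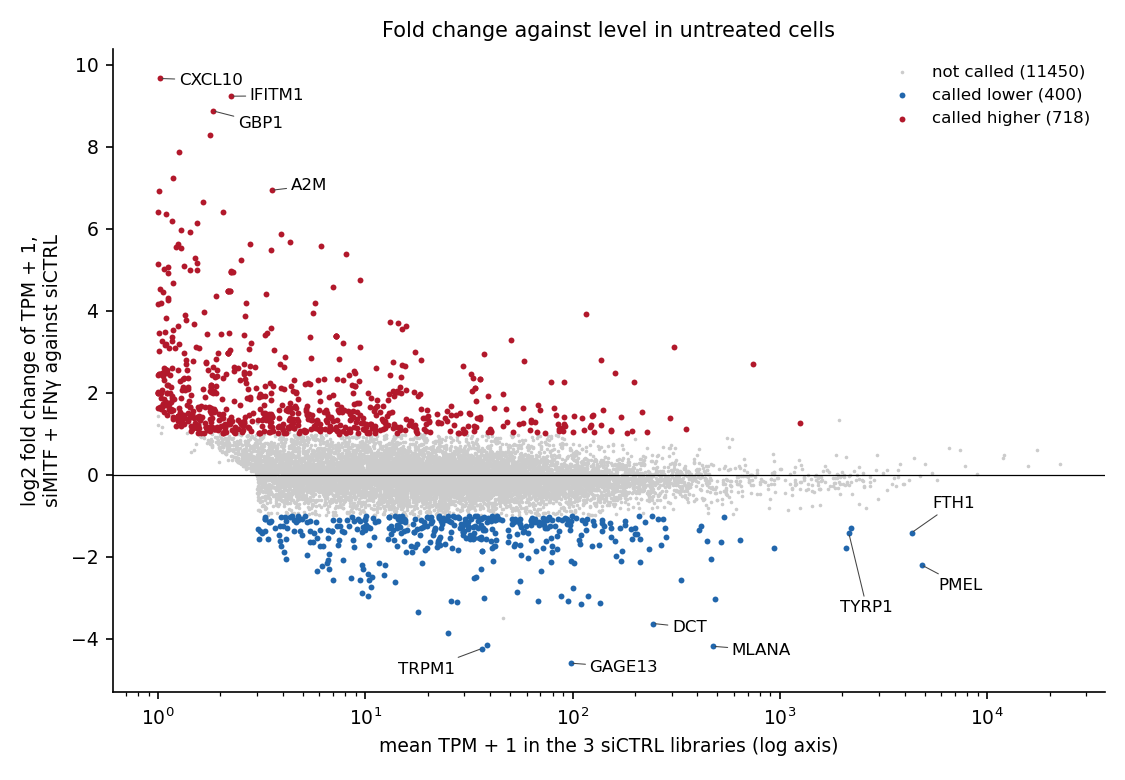
Each point is 1 of the 12568 tested gene IDs, with the mean TPM + 1 of the 3 siCTRL libraries on a log axis and the log2 fold change of TPM + 1 in siMITF + IFNγ on the vertical axis. Blue points are the 400 called lower and red points the 718 called higher. Lowered genes reach from the filter at 2 TPM to PMEL near 4827 TPM, while the steepest rises start from genes near 0 TPM in siCTRL.

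MITF itself was reduced in every library that received its siRNA. Its level (ENSG00000187098, chromosome 3, 69739456 to 69968336, plus strand, GRCh38) was 187, 229 and 217 TPM in the 3 siCTRL libraries and 37.5, 55.05 and 51.3 TPM in siMITF + IFNγ. The conditions did not overlap, and the fitted log2 fold change was -2.13 ± 0.19 (SE, limma, adjusted p = 1.26e-06), leaving 22.7% of the siCTRL mean. MITF was at 42.5 TPM in siMITF alone and at 216 TPM in siCTRL + IFNγ.

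Pigment genes had the lowest median fold change of the gene lists examined. Of 14 genes for the melanosome matrix and pigment synthesis, all tested, 8 were called lower and none higher. The shares over all tested gene IDs were 3.18% and 5.71%. The median log2 fold change was -1.44, against -0.04 over all tested gene IDs. At any fold, 13 of the 14 were lower at an adjusted p under 0.05, beside 23.8% of all tested gene IDs. The summed level of the 14 genes ran from 9242 to 10790 TPM in the siCTRL libraries and from 2657 to 3308 TPM in siMITF + IFNγ. Reported MITF targets and pigment genes were listed from general knowledge and with earlier results of these libraries known, so their direction is no independent evidence.

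PMEL forms the fibrils of the melanosome matrix and was the lowered gene with the largest fall in TPM. It was at 4421, 5347 and 4712 TPM in siCTRL and at 842, 1160 and 1164 TPM in siMITF + IFNγ (log2 fold change -2.20 ± 0.14, SE, limma, adjusted p = 8.49e-08). The highest siMITF + IFNγ library thus lay well below the lowest siCTRL library. MLANA, a melanosome membrane protein that T cells recognise as Melan-A, went from 501, 482 and 442 TPM to 24.2, 23.1 and 28.2 TPM, or 5.30% of its siCTRL mean. Its log2 fold change was -4.19 ± 0.09 (SE, limma, adjusted p = 1.97e-12), again without overlap.

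Both enzymes that act after tyrosinase fell by different amounts. DCT, dopachrome tautomerase, was at 215, 273 and 244 TPM in siCTRL and at 15.2, 19.1 and 22.3 TPM in siMITF + IFNγ, a log2 fold change of -3.63 ± 0.16 (SE). TYRP1 was at 2000, 2377 and 2069 TPM and then at 723, 866 and 804 TPM, a log2 fold change of -1.43 ± 0.11 (SE). In neither gene did the conditions overlap. Tyrosinase itself, TYR, is the enzyme that starts melanin synthesis, and its mean was 367 ± 33.1 TPM before and 299 ± 8.85 TPM after the combined treatment (SD, n = 3). That difference, -0.29 on the log2 scale, passed the adjusted p (0.0108, limma) and stayed far short of the fold limit.

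The other called pigment genes encode melanosome transporters, a receptor and a glycoprotein. OCA2, which raises melanosome pH, fell by 1.88 on the log2 scale, from 14.8 ± 0.228 to 3.30 ± 0.386 TPM (SD, n = 3). GPNMB, a glycoprotein related to PMEL, fell from 641 ± 39.0 to 210.5 ± 4.63 TPM. GPR143, the receptor altered in ocular albinism, fell by 1.53, from 152 ± 3.19 to 52.2 ± 4.72 TPM. SLC24A5, a cation exchanger that affects skin colour, fell by 1.45, from 203 ± 12.7 to 74.0 ± 6.75 TPM. SLC45A2, another transporter of the melanosome, had means of 449.5 and 259 TPM in the 2 conditions and did not reach the fold limit (-0.82).

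Of 20 genes for melanosome sorting and transport, 4 were lower and none higher, beside 3.18% and 5.71% of all tested gene IDs. The median log2 fold change was -0.19. The 4 were MLPH, LYST, RAB32 and RAB27A. MLPH, which links melanosomes to the actin motor, fell furthest, from 54.7 ± 0.929 to 8.31 ± 0.765 TPM (-2.58 on the log2 scale). RAB27A, the GTPase that recruits MLPH, was at 114, 119 and 109 TPM in siCTRL and 49.6, 48.0 and 51.6 TPM in siMITF + IFNγ. Its partner motor MYO5A stood at 49.0 and 29.0 TPM (-0.76) and was not called. The subunits of the sorting complexes moved little, with BLOC1S1 at 109 and 103 TPM and HPS1 at 40.5 and 37.6 TPM.

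Among 14 tested transcription factors of melanocytes and the neural crest, 4 were lower and LEF1 was higher. Over all tested gene IDs 3.18% were lower and 5.71% higher. The median log2 fold change was however 0.32, and at an adjusted p under 0.05 and any fold 7 were higher and 5 lower. By that measure 21.1% of all tested gene IDs were higher and 23.8% lower. Beside MITF the 4 called lower were SNAI2 (41.5 to 13.2 TPM, -1.59), TFEB (7.32 to 2.51 TPM, -1.26) and IRF4 (13.4 to 6.08 TPM, -1.02). LEF1, a nuclear partner of beta-catenin, rose from 67.0 to 221 TPM. SOX10, which marks melanocytic and neural crest cells, was at 263 ± 3.18 TPM in siCTRL and at 220 ± 22.9 TPM in siMITF + IFNγ, a log2 difference of -0.26 that passed the adjusted p (0.0172, limma) but not the fold limit. PAX3 was at 30.7 and 42.3 TPM. S100B, a calcium-binding protein used as a melanocytic marker, was at 81.8 ± 4.13 and 226 ± 11.7 TPM (SD, n = 3), so not every marker of the lineage was lowered.

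**Figure D2:**
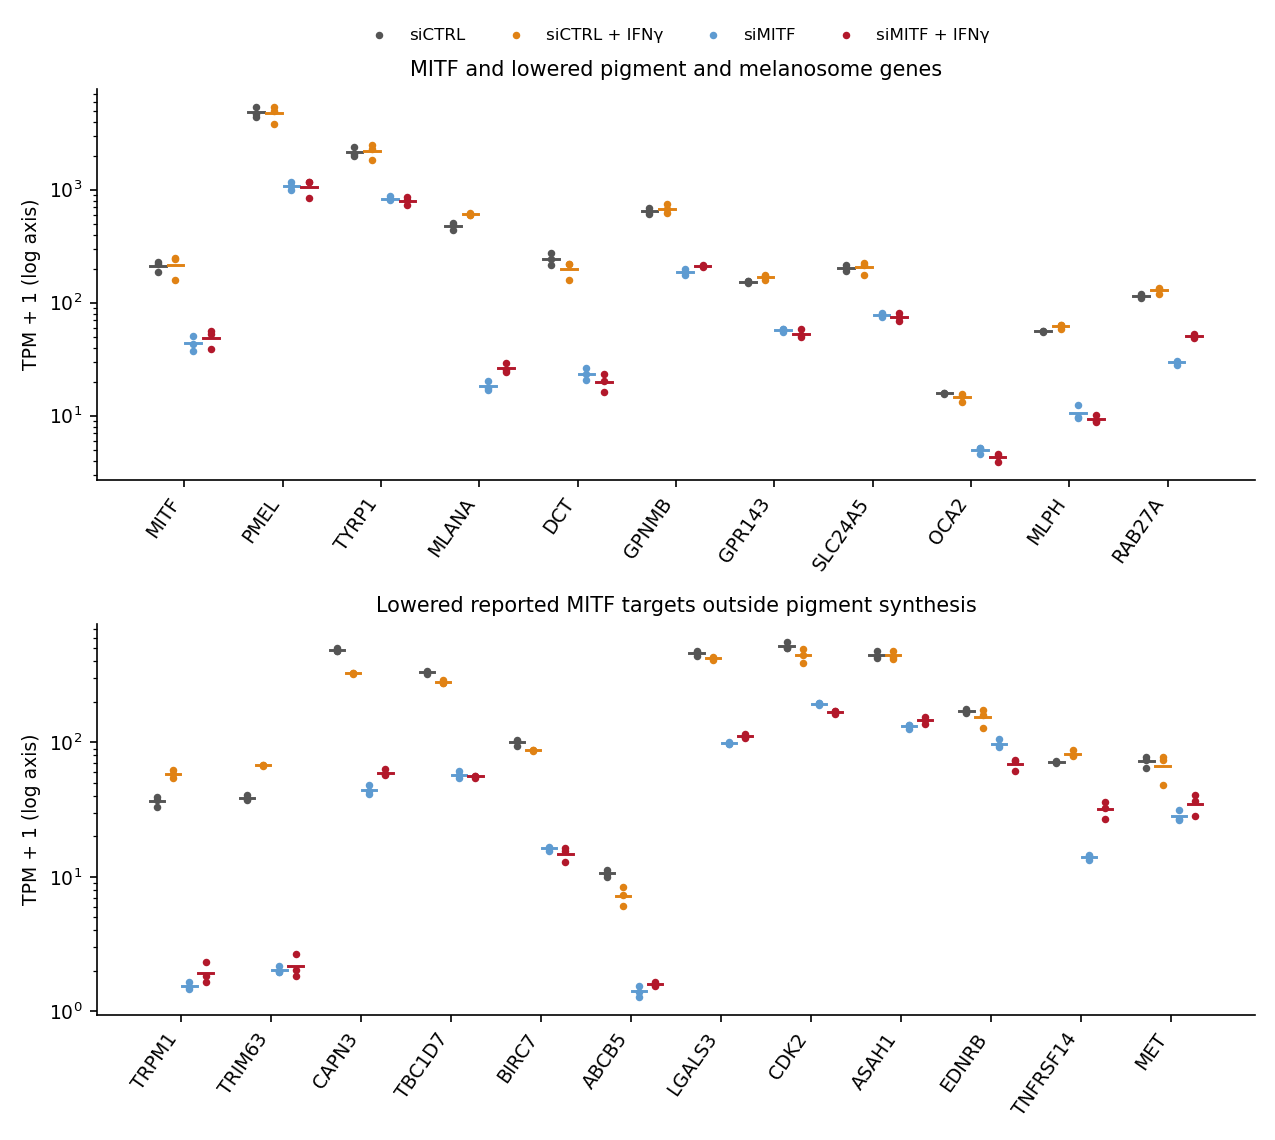
Points are TPM + 1 of single libraries on a log axis and short lines are means of 3 libraries, for siCTRL (grey), siCTRL + IFNγ (orange), siMITF (blue) and siMITF + IFNγ (red). The upper panel has MITF, 8 pigment genes, MLPH and RAB27A, and the lower panel 12 lowered genes among the reported MITF targets. In every gene drawn the 3 red points lie below the 3 grey ones.

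Reported MITF targets outside pigment synthesis gave the longest set of lowered genes. Of 44 tested, 20 were lower and 2 were higher, SLC7A8 and CTSK, beside 3.18% and 5.71% of all tested gene IDs. The median log2 fold change was -0.91. At an adjusted p under 0.05 and any fold, 37 of the 44 were lower, beside 23.8% of all tested gene IDs. TRPM1, a cation channel of melanocytes and retina, was at 38.5, 36.01 and 31.9 TPM in siCTRL and at 0.661, 0.848 and 1.31 TPM in siMITF + IFNγ. Its log2 fold change of -4.24 ± 0.13 (SE, limma, adjusted p = 3.67e-11) was second among the named genes only to GAGE13. TRPM1 kept 2.65% of its siCTRL mean and GAGE13 3.18%, so the order of these genes depends on the added 1. TRIM63, a ubiquitin ligase known from muscle, was at 36.5, 39.4 and 37.0 TPM and then at 0.826, 1.05 and 1.66 TPM (-4.17 ± 0.12, SE). Neither gene's conditions came near each other.

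CAPN3, a calcium-dependent protease, combined a high level with a deep fall. It was at 506, 478 and 480 TPM in siCTRL and at 55.8, 57.4 and 62.5 TPM in siMITF + IFNγ (log2 fold change -3.04 ± 0.07, SE). TBC1D7, a subunit of the TSC complex that restrains mTORC1, kept 16.5% of its siCTRL mean, 332 ± 9.29 TPM. Survival factors were among the lowered targets. BIRC7, an inhibitor of apoptosis known as livin, fell from 99.1 ± 4.74 to 13.9 ± 1.86 TPM (SD, n = 3). BCL2A1, an antiapoptotic BCL2 relative, fell by 1.52 on the log2 scale to 7.03 ± 0.640 TPM. BCL2 itself was at 7.46 and 7.81 TPM, a difference within the spread of its libraries.

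Receptors and secreted proteins made up another set within these targets. EDNRB, the endothelin receptor of the melanocyte lineage, was at 164, 175 and 168 TPM in siCTRL and 60.1, 71.4 and 73.1 TPM in siMITF + IFNγ (-1.30). MET, the receptor for hepatocyte growth factor, had a log2 fold change of -1.05, and KIT, the receptor for stem cell factor, stood at 83.5 and 43.2 TPM (-0.94) just outside the limit. MET was itself short of the limit without siCTRL replicate 2 (-0.996) and without siMITF + IFNγ replicate 1 (-0.903). TNFRSF14, a lymphocyte co-signalling receptor, fell from 70.8 ± 1.51 to 30.8 ± 4.58 TPM. LGALS3, which encodes galectin-3, fell from 463 ± 19.8 to 110 ± 3.55 TPM (-2.07). ABCB5, a membrane transporter, was left at 0.588 ± 0.0485 TPM from 9.65 ± 0.640 TPM.

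CDK2, the kinase that drives cells into S phase and an established MITF target in melanoma, was at 499, 559 and 504 TPM in siCTRL and at 162, 169 and 170 TPM in siMITF + IFNγ (log2 fold change -1.63 ± 0.08, SE, limma, adjusted p = 7.23e-09). Its annotated body on chromosome 12 (55966781 to 55972789, plus strand) lies inside that of PMEL (55954105 to 55973317, minus strand), and the library kit used does not mark strand. Reads from the stretch they share cannot be told apart by strand. The bodies of MLANA and KIAA2026, BHLHE41 and SSPN, and FTH1 and BEST1 overlap in the same way, and all of these were called lower.

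The promoters of 5 lowered genes are shown because MITF binds E-boxes. Of these, TRPM1 and TRIM63 fell more than 4-fold, and TYRP1, GPR143 and GPNMB fell 2-fold to 4-fold. The sequences are from RefSeq on GRCh38.p14, 250 bases before and 50 bases after an annotated start, read 5′ to 3′ in the direction of transcription, and the capitals mark CATGTG on either strand. These 5 were picked from the lowered genes because they hold the motif, so their having it is no result.
TRPM1, chr15:31161111-31161410, minus strand: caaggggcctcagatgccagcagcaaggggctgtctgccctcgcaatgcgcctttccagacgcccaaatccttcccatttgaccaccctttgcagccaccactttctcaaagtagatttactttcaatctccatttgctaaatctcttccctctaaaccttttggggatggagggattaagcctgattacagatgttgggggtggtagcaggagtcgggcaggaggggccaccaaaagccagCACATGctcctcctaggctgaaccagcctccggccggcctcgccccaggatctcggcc
TRIM63, chr1:26067581-26067880, minus strand: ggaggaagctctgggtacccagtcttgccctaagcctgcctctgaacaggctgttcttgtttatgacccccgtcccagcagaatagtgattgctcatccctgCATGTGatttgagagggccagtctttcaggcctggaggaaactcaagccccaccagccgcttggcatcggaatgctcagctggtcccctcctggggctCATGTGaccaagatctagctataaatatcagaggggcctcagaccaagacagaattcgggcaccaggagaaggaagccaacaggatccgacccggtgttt
TYRP1, chr9:12693135-12693434, plus strand: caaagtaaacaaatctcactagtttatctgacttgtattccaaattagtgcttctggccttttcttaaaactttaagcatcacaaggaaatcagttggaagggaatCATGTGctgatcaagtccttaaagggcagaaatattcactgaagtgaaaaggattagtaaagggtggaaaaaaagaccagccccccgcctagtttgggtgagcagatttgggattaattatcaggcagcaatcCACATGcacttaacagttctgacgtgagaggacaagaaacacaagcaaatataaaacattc
GPR143, chrX:9765798-9766097, minus strand: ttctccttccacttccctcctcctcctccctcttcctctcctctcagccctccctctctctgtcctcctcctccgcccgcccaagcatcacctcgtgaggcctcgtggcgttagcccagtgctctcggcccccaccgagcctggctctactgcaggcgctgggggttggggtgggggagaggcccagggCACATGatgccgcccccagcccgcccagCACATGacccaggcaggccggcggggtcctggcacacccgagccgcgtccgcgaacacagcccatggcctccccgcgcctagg
GPNMB, chr7:23246525-23246824, plus strand: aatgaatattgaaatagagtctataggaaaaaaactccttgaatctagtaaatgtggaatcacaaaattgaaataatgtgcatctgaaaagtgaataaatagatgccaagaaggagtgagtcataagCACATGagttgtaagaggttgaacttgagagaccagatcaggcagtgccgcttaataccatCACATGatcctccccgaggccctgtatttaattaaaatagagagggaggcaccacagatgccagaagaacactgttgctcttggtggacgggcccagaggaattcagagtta
In TRPM1 the motif began 8 bases before the start, in TRIM63 it began 148 and 50 bases before, in TYRP1 144 and 11, and in GPR143 61 and 33. The first listed promoters of MLANA and DENND2D held neither CATGTG nor CACGTG, whereas BHLHE41, MLPH and BIRC7 held CACGTG. A match says only that the letters are present.

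Over whole sets the same letters were counted in 1 promoter per protein-coding gene, the first listed. Promoters were found for 290 of the 356 symbols among the lowered protein-coding genes and for 9237 of 11176 tested. CATGTG, on either strand, was in 13.1% of the lowered genes' promoters, in 16.3% of those lowered at least 4-fold (7 of 43), and in 6.53% of all tested. Over all 27305 genes in the promoter table, expressed or not, it was in 11.2%. Among genes with a single listed start the shares in the lowered, tested and whole sets were 16.0% (30 of 188), 6.38% (413 of 6474 tested) and 11.65% (2576 of 22114 in the table). CACGTG was in 7.59% of the lowered genes' promoters, in 13.95% of those lowered at least 4-fold (6 of 43), and in 10.51% of all tested. Among genes with a single listed start these CACGTG shares were 9.04%, 19.2% (5 of 26) and 10.9%. CCAAT, a common core promoter element, was in 31.4% of the lowered genes' promoters and in 37.2% of all tested. These shares are descriptions without a test. For the raised genes fewer than 80% matched (76.4%), so no share is given.

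Cancer-testis antigens of the MAGE and GAGE families supplied some of the deepest falls. Of 24 tested members 6 were lower and 1 higher, beside 3.18% and 5.71% of all tested gene IDs. The median log2 fold change was -0.41. GAGE13 was at 97.7, 100 and 93.2 TPM in siCTRL and at 3.71, 2.35 and 3.19 TPM in siMITF + IFNγ (log2 fold change -4.60 ± 0.12, SE, limma, adjusted p = 7.20e-12). MAGEC1 was at 23.6, 26.6 and 24.8 TPM and then at 1.89, 1.94 and 2.42 TPM. Neither gene's conditions overlapped. The other called members were GAGE12G (109 to 11.4 TPM), GAGE2E (134 to 15.5 TPM), GAGE12F (172 to 46.2 TPM) and GAGE2A (78.7 to 23.0 TPM). GAGE genes are near-identical copies on the X chromosome, so how their shared reads were divided between copies is uncertain and the fall is better read for the family than for a copy.

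Others among the 25 deepest falls have varied functions. DENND2D, an exchange factor for RAB GTPases, went from 24.0 ± 2.46 to 0.760 ± 0.492 TPM (-3.86). VEPH1, a protein with a pleckstrin homology domain, fell by 3.08 on the log2 scale from 93.8 TPM. BHLHE41, a circadian transcriptional repressor, fell by 3.08 as well, from 67.0 to 7.04 TPM. GABRP, a subunit of the GABA-A receptor, was at 127, 108 and 117 TPM in siCTRL and at 14.3, 12.5 and 16.1 TPM in siMITF + IFNγ. OPN5, an opsin, was at 12.9 and 1.27 TPM, and MS4A15 at 26.7 and 2.26 TPM. KRTAP19-1, a hair keratin-associated gene, fell from 87.1 ± 10.6 to 10.2 ± 0.309 TPM (SD, n = 3), and OSBPL10, an oxysterol-binding protein, at 8.68 and 0.313 TPM. SLC37A2, a sugar phosphate exchanger, and TTC39A fell by 3.02 and 2.86 on the log2 scale. The libraries of the 2 conditions were separate in each of these genes, as the rule for naming the deepest falls required.

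Sphingolipid enzymes were examined as a list drawn up after the values had been seen. Of 33 tested, 8 were lower and 1 higher, beside 3.18% and 5.71% of all tested gene IDs. The median of -0.05 was close to that of all tested gene IDs. The lowered enzymes sit at several steps. CERS2, which makes very long chain ceramides, fell from 160 ± 3.57 to 51.8 ± 2.89 TPM, and ASAH1, the lysosomal ceramidase, from 446 ± 29.0 to 145 ± 8.37 TPM (SD, n = 3). UGCG, which puts glucose on ceramide, fell from 150 to 65.8 TPM, and ST3GAL5, the GM3 synthase that starts the gangliosides, from 31.9 to 12.7 TPM. SGPL1, GM2A, CERK and NEU3 completed the set with log2 fold changes of -1.24, -1.21, -1.05 and -1.004, and NEU3 lost its call under several alternatives.

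Mitochondrial protein import, also listed after the values were seen, had 4 of 28 genes lower and none higher, with a median of -0.27. The shares over all tested gene IDs were 3.18% lower and 5.71% higher. TIMM10, an intermembrane space chaperone, was at 137, 146 and 129 TPM in siCTRL and at 50.3, 52.3 and 54.4 TPM in siMITF + IFNγ (-1.37). TIMM44 and TIMM50, parts of the inner membrane translocase, and CHCHD4, an oxidative folding factor of the intermembrane space, had log2 fold changes of -1.23, -1.08 and -1.11. PPARGC1A, a coactivator of mitochondrial biogenesis, fell from 28.1 ± 3.47 to 11.2 ± 2.70 TPM. By contrast none of the 30 nuclear subunits of oxidative phosphorylation was called in either direction (median -0.15). Over all tested gene IDs 6888 of 12568 were fitted below 0. All 13 mitochondrially encoded genes were fitted above 0 (median 0.41), and none of them passed the adjusted p. That median was 0.0087 without siCTRL replicate 2 and 0.64 without siCTRL replicate 1, so it rested on single libraries.

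Of 195 tested solute carriers 13 were lower and 10 higher, with a median of -0.07, beside 3.18% lower and 5.71% higher over all tested gene IDs. Some of the 13 are described by what they carry, picked after their values were seen. SLC11A2, an iron importer, fell from 72.5 to 28.8 TPM, SLC31A1, a copper importer, from 138 to 63.8 TPM, and SLC39A11, a zinc carrier, by 1.39 on the log2 scale. Without siMITF + IFNγ replicate 1 SLC31A1 was at -0.97 and SLC7A1 at -0.91, short of the fold limit. FTH1, the heavy chain of the iron store ferritin, was at 4247, 4374 and 4337 TPM in siCTRL and 1489, 1668 and 1706 TPM in siMITF + IFNγ (-1.42). FTH1 has many processed pseudogenes, as has the ribosomal protein gene RPL31 (2075 to 603 TPM), so their levels depend on how shared reads were assigned. SLC7A2 and SLC7A1, carriers of arginine and lysine, were at 27.6 and 49.8 TPM in siCTRL and at 10.7 and 23.2 TPM in siMITF + IFNγ. RPL31 was the only one of 82 cytosolic ribosomal protein genes that was called, and MRPS10 (51.6 to 15.4 TPM) the only one of 77 mitochondrial ones.

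Amino acid and stress response genes had 3 of 22 lower and WARS1 higher, beside 3.18% and 5.71% of all tested gene IDs. PHGDH and PSAT1 catalyse steps of serine synthesis, and GARS1 charges glycine to its tRNA. PHGDH was at 393, 473 and 386 TPM in siCTRL and at 158, 182 and 178 TPM in siMITF + IFNγ (-1.26), without overlap. PSAT1 was at 13.4 and 5.15 TPM and GARS1 at 198 and 72.0 TPM. The regulator of this response, ATF4, stood at 327 and 265 TPM (-0.30). WARS1, the tryptophan tRNA synthetase that interferon induces, rose from 115 to 1751 TPM.

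None of 28 lysosome genes was called, with a median of 0.02, and 10 were lower and 5 higher at an adjusted p under 0.05, where 23.8% and 21.1% of all tested gene IDs were. The count of 10 was 5 without siCTRL replicate 2 and 6 without siMITF + IFNγ replicate 1. CD63, a tetraspanin of lysosomes and melanosomes, was at 1424 and 842 TPM (-0.76), and CTSB, a protease, at 923 and 1311 TPM (0.50). Of 16 V-ATPase subunits, which acidify these organelles, ATP6V0E1 alone was called (192 to 64.4 TPM). In the list of 11 cathepsins, drawn up after the values were seen, CTSH and CTSL were lower and 2 were higher.

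Most cell division genes fell, by small amounts. All 34 DNA replication genes were fitted below 0, 29 of them at an adjusted p under 0.05, against 23.8% of all tested gene IDs, and the median log2 fold change was -0.55. Over all tested gene IDs 6888 of 12568 were fitted below 0. Only GINS1, a subunit of the replicative helicase, passed the fold limit. It was at 56.8, 68.9 and 61.1 TPM in siCTRL and at 25.5, 30.5 and 29.2 TPM in siMITF + IFNγ (-1.10 ± 0.11, SE, limma, adjusted p = 3.65e-06). Helicase subunit MCM2 was at 49.7 and 28.4 TPM (-0.82), the primase subunit PRIM1 at 85.0 and 45.6 TPM (-0.89), and the sliding clamp PCNA at 459 and 343 TPM (-0.42).

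Mitotic genes gave a like count, with all 35 fitted below 0, 29 of them at an adjusted p under 0.05, and a median of -0.46, though none reached the fold limit. Over all tested gene IDs 6888 of 12568 were fitted below 0, and 23.8% were lower at that adjusted p. The same shares stand beside the repair and nucleotide counts below. AURKB, a kinase of chromosome segregation, went from 112 to 58.2 TPM (-0.93), BUB1 of the spindle checkpoint from 63.5 to 36.9 TPM (-0.77), and PLK1 from 143 to 95.8 TPM (-0.61). CDK1, the mitotic kinase, was at 174 and 142 TPM (-0.29). Of 23 genes for recombination and crosslink repair, 22 were fitted below 0 and 17 passed, with a median of -0.52. HELLS, a chromatin remodeller, was the member called (41.2 to 18.7 TPM). In nucleotide synthesis 10 of 20 passed, with a median of -0.43, or -0.24 without siMITF + IFNγ replicate 1, among them RRM2, a subunit of ribonucleotide reductase (255 to 148 TPM), and TYMS, thymidylate synthase (127 to 76.1 TPM).

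The deeper falls in this area were in CDC25A, CHAF1B and H2AZ1. CDC25A, the phosphatase that activates CDK2, was at 35.8, 42.7 and 40.2 TPM in siCTRL and at 9.60, 12.9 and 14.3 TPM in siMITF + IFNγ (-1.62 ± 0.16, SE). CHAF1B, a subunit of the histone chaperone CAF-1, fell by 1.48 on the log2 scale, to 9.61 ± 0.975 TPM. H2AZ1, which encodes histone H2A.Z, was at 2133, 2372 and 2081 TPM and then at 880, 947 and 862 TPM (-1.29). In G1 control, 8 of 21 genes were lower and 3 higher at an adjusted p under 0.05. Over all tested gene IDs 23.8% were lower and 21.1% higher by that measure. The 3 higher were the inhibitors CDKN2B and CDKN2C and the retinoblastoma relative RBL2, with log2 differences of 0.40, 0.40 and 0.38.

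The single treatments share the siCTRL libraries with this comparison, and their own values are given side by side. For pigment genes the median was -1.37 in siMITF alone and 0.02 in siCTRL + IFNγ. In siMITF alone 8 of the 14 were called lower, against 2.93% of all tested gene IDs, and in siCTRL + IFNγ none was, against 0.103%. For replication genes the medians were -0.11 in siMITF alone and -0.33 in siCTRL + IFNγ, and for mitotic genes 0.20 and -0.39. In siMITF alone 6 replication genes and 1 mitotic gene were lower at an adjusted p under 0.05, against 13.9% of all tested, and in siCTRL + IFNγ 14 and 21 were, against 6.20%.

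Against siMITF alone, which shares no siCTRL library, siMITF + IFNγ was lower in 34 of the 35 mitotic genes and in 17 of the 34 replication genes at an adjusted p under 0.05, where 12% of all tested gene IDs were. Summed over the 35 mitotic genes, the level was 3467, 3650 and 3420 TPM in siMITF and 2112, 2346 and 2244 TPM in siMITF + IFNγ, and the libraries of siCTRL lay between these at 2924, 3239 and 3055 TPM. The test of whether the effect of siMITF differed with and without IFNγ passed in none of the replication and mitotic genes, and in 0.915% of all tested gene IDs. Its fitted value was below 0 in 34 of the 35 mitotic genes (median -0.31) and in 29 of the 34 replication genes (median -0.12), beside 7177 of all 12568 gene IDs (median -0.03).

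**Figure D3:**
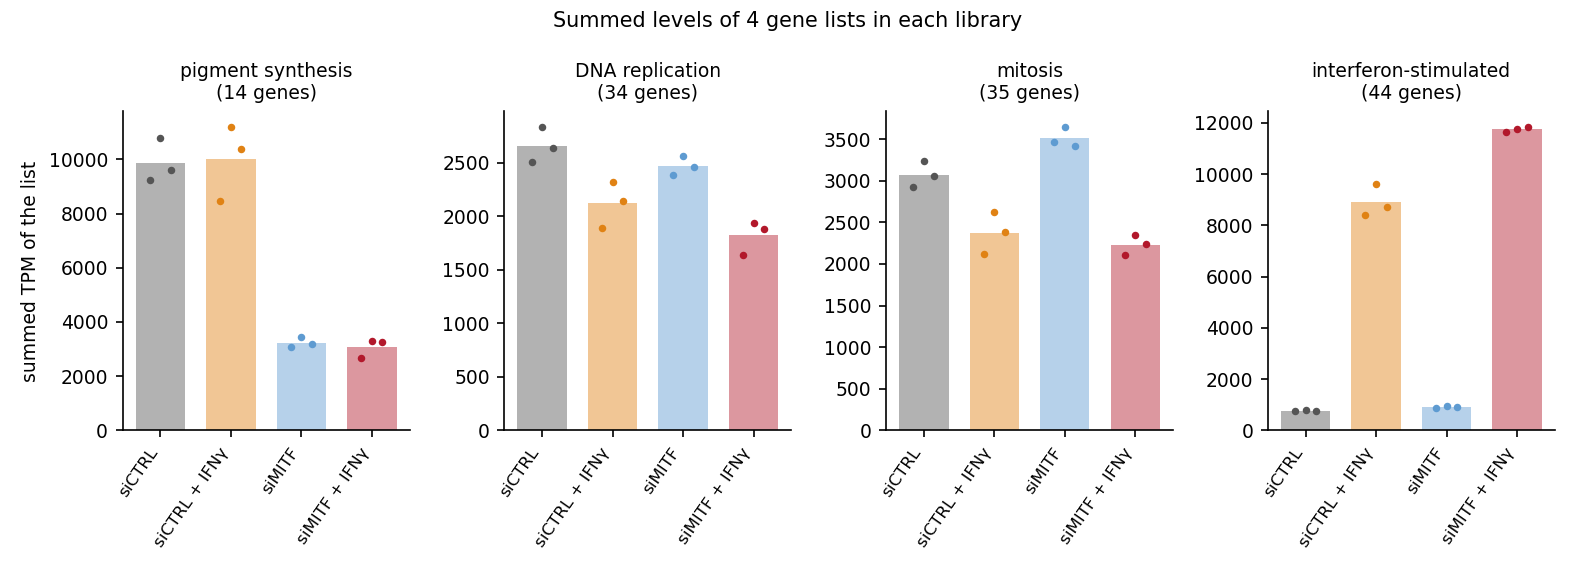
Bars are means and points the 3 libraries of the summed TPM of 4 gene lists in each of the 4 conditions, with axes that start at 0. Pigment genes are low in both siMITF conditions, replication and mitotic genes have their lowest means in siMITF + IFNγ, close to siCTRL + IFNγ for mitosis, and interferon-stimulated genes are high in both IFNγ conditions.

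For the 400 lowered gene IDs as a whole the median log2 fold change was -1.34 in the combination, -1.27 in siMITF alone and -0.19 in siCTRL + IFNγ. They were chosen through the combination, so these medians only describe them. CERK, ceramide kinase, had its low values with IFNγ. It was at 82.4, 101 and 90.3 TPM in siCTRL and at 34.0, 49.0 and 48.8 TPM in siMITF + IFNγ, with means of 102 TPM in siMITF and 45.8 TPM in siCTRL + IFNγ. ERVMER34-1, a gene from an endogenous retroviral envelope, had the like order, 141 and 59.4 TPM in the compared conditions, 129 TPM in siMITF and 57.0 TPM in siCTRL + IFNγ. Both were also called lower against siMITF alone (-1.21 and -1.12), as were 20 of all tested gene IDs, or 0.159%.

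Another set passed in the combination while neither single treatment passed the same thresholds. INKA1, an inhibitor of the kinase PAK4, was at 13.9, 15.4 and 13.6 TPM in siCTRL and at 3.62, 4.10 and 4.24 TPM in siMITF + IFNγ (-1.62), with log2 fold changes of -0.80 in siMITF and -0.68 in siCTRL + IFNγ. GHR, the growth hormone receptor, had -1.58 in the combination, -0.64 in siMITF and -0.55 in siCTRL + IFNγ. The like values were -1.30, -0.80 and -0.15 for EDNRB and -1.48, -0.88 and -0.07 for KCNAB2, a potassium channel subunit. ADD2, a membrane skeleton protein, UGT2B7, a glucuronosyltransferase, ERFE, a regulator of hepcidin, and MEX3C, an RNA-binding ubiquitin ligase, fell by 1.39, 1.34, 1.31 and 1.30 on the log2 scale. PHGDH was at -0.36 and -0.45 in the single treatments and -1.26 in the combination. A gene missing the threshold in the single treatments is not thereby shown to differ between them, and the interaction did not pass for any gene named in this paragraph.

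Some lowered genes stood higher with IFNγ than with siMITF alone. IRF4, a transcription factor of melanocytes and lymphocytes, was at 1.34 TPM in siMITF, 6.08 TPM in siMITF + IFNγ, 13.4 TPM in siCTRL and 31.5 TPM in siCTRL + IFNγ. TNFRSF14 was at 13.1 TPM in siMITF and 30.8 TPM in siMITF + IFNγ, and RAB27A at 28.5 and 49.8 TPM. CTSL, a lysosomal protease, was at 84.8 and 111 TPM, with 439 TPM in siCTRL + IFNγ. In these genes the combination lay between siMITF alone and siCTRL.

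**Figure D4:**
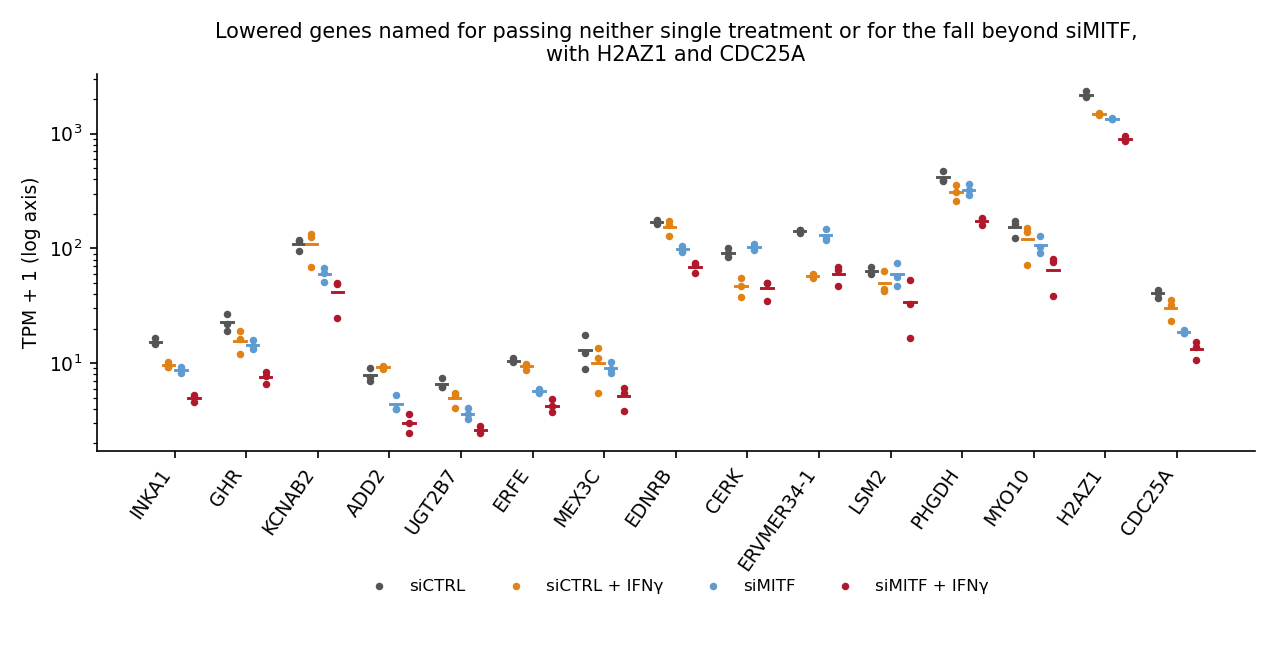
Points are TPM + 1 of single libraries on a log axis and short lines are means of 3 libraries in the 4 conditions, for 13 lowered protein-coding genes that passed neither single treatment or fell furthest beyond siMITF alone, with H2AZ1 and CDC25A. In CERK and ERVMER34-1 the 2 IFNγ conditions lie together below the other 2. In INKA1, GHR, PHGDH and H2AZ1 the combination lies lowest.

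The raised gene IDs included most of the interferon-stimulated genes examined. Of 44 tested interferon-stimulated genes 40 were higher and none lower, with a median log2 fold change of 3.81, and of 18 genes for MHC class I presentation 17 were higher, with a median of 2.57. CXCL10, a T cell chemokine, was at 0.0414, 0.0294 and 0 TPM in siCTRL and at 1047, 748 and 729 TPM in siMITF + IFNγ. IFITM1 and GBP1, antiviral proteins, and BST2, which tethers viruses, reached 1331, 863 and 556 TPM from about 1 TPM each. CXCL10, IFITM1, GBP1 and BST2 lay below the 2 TPM filter in siCTRL and entered the test through siMITF + IFNγ alone. That fixed their direction, as it did for any list member below 2 TPM in siCTRL. To that extent the counts of higher genes are no independent evidence. Of 11 MHC class II genes 4 were tested and all 4 were higher, CD74 the furthest, from 0.640 to 162 TPM. The siCTRL means of these 4 summed to 1.39 TPM. They thus entered the test through siMITF + IFNγ alone, which fixed their direction. Of 20 genes of the undifferentiated melanoma state 10 were tested, of which 4 were higher and none lower. Over all tested gene IDs 5.71% were higher and 3.18% lower. TNC, a matrix protein among the 4, went from 1.52 to 95.2 TPM and entered the test through siMITF + IFNγ alone.

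Markers of other cell types stayed low. Of 21 such markers 3 were tested, and none was called. Their summed level over the 21 was 59.0 to 72.4 TPM in siCTRL and 49.6 to 61.3 TPM in siMITF + IFNγ, most of it KRT10, while CD3E and KRT1 were listed at 0 in all libraries. Library siCTRL replicate 2 stood apart in its mitochondrial share, 7.42% of its TPM against 14.2% and 14.8% in the other siCTRL libraries and 12.7% to 16.9% in siMITF + IFNγ. Without it 356 gene IDs were lower, 8 of the 14 pigment genes were still called, and the lower genes at an adjusted p under 0.05 were 27 of 34 in replication and 23 of 35 in mitosis. Replicate 2 had the lowest share of the 3 libraries in each other condition too, at 12.7% with both treatments, 10.1% with siMITF alone and 8.45% with IFNγ alone. What set it apart was not tested.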

How the data were processed

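RNA of 624Mel cells was sequenced in 12 libraries, 3 for each of siCTRL, siCTRL + IFNγ, siMITF and siMITF + IFNγ. Total RNA was made into libraries with the TruSeq RNA v2 kit, which does not mark strand. Reads were trimmed with Trimmomatic 0.39 and pseudoaligned by kallisto to Ensembl transcripts of GRCh38, as the study's methods and the submitters' processing notes state. The authors deposited TPM summed per Ensembl gene ID. The summing tool and the Ensembl release are not given in the sources used here. The authors also ran DESeq2 1.26.0 on counts, not used here. TPM keep no read depth, so depth is unknown and no counting interval is given. Replicates are the libraries numbered 1 to 3 in the labels.

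TPM were transformed to log2(TPM + 1). One model over all 12 libraries was fitted with limma 3.58.1 (R 4.3.3), with 1 coefficient per condition and an intensity trend, for gene IDs that averaged 2 TPM or more in siCTRL or siMITF + IFNγ. Tests were two-sided and adjusted by Benjamini-Hochberg over 12568 gene IDs. Symbols and positions came from GENCODE 44, which lacks 4653 of the 40173 IDs. Tables and figures were made with pandas 2.3.3 and matplotlib 3.10.9. Before use, known changes in simulated data were recovered as a test of the fit.

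Genes named as deepest falls or steepest rises had to have conditions that did not overlap, which was not asked of list members. All named genes had a symbol. They were the 25 deepest falls, the 10 deepest in TPM, the 10 deepest passing neither single treatment, the 10 deepest against siMITF, the 10 steepest rises, MITF, up to 6 called members of each list and, whatever their values, list members described by role, many of which were picked after their values were seen. Genes and lists were chosen with earlier results of these data known, and 6 lists were added after the values were seen. After subtracting condition means, libraries with the same number correlated at 0.20 to 0.38 in the 3 pairs of this comparison. Those with different numbers correlated at -0.29 to 0.10. Over all conditions the ranges overlapped, with 0.088 for replicate 3 of siCTRL and siMITF. The value was 0.23 for siCTRL + IFNγ replicate 2 and siMITF + IFNγ replicate 3. The labels state no pairing. A fit with a replicate block was run as an alternative, and the printed p-values and SE are from the fit without it. Other alternatives changed the pseudocount, the filter, the scaling, the moderation, the libraries fitted and the gene unit, and left out each library in turn.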

Additional observations from a re-analysis of the deposited data

Results flagged for a closer look

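In 7 genes named in the text the effect of siMITF with IFNγ differed from that without IFNγ by the interaction test (limma, adjusted over all tested gene IDs), which 115 of 12568 gene IDs passed. All values below are differences, with minus without, on the log2 scale. Of the 5 lowered genes, CAPN3 had a difference of 1.01 (limma, adjusted p = 0.000342), and siMITF took its mean from 488 to 43.3 TPM without IFNγ and from 326 to 58.5 TPM with it. TNFRSF14 had 0.96 (limma, adjusted p = 0.00535), from 70.8 to 13.1 TPM without and from 81.6 to 30.8 TPM with IFNγ. RAB27A had 0.62 (limma, adjusted p = 0.0111), from 114 to 28.5 TPM without and from 127 to 49.8 TPM with IFNγ. ITGB8, an integrin subunit, had 0.81 (limma, adjusted p = 0.0410), from 9.85 to 5.46 TPM without and from 4.05 to 4.24 TPM with IFNγ. GAGE13 had -0.78 (limma, adjusted p = 0.0467), from 97.1 to 3.46 TPM without and from 152 to 3.08 TPM with IFNγ, and its copies share reads.

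The other two were raised genes. CXCL10 had a difference of 1.78 (limma, adjusted p = 0.000286), from 0.0236 to 0.558 TPM without and from 158 to 841 TPM with IFNγ. Without IFNγ its means lay below 1 TPM, where the added 1 damps a fold change. As a ratio of TPM means its rise was larger without IFNγ, so the sign of its difference depends on the added 1. The alternative fits covered siMITF + IFNγ against siCTRL only, so no difference in this section was refitted. CD74, the invariant chain of MHC class II, had 1.71 (limma, adjusted p = 0.000401), from 0.640 to 0.811 TPM without and from 44.5 to 162 TPM with IFNγ.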

How the results depend on the processing

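The number of lowered gene IDs ran from 319, where only gene IDs averaging 5 TPM or more across the libraries were kept, to 496 with a pseudocount of 0.1. No gene ID of the 400 had a positive fold change under any alternative run per gene ID. The number raised, 718, was 464 under the same filter, which tested fewer gene IDs. With the replicate block 404 gene IDs were lower, including all 400, and 725 were higher. Leaving out 1 library at a time gave 352 to 452 lower, 693 to 802 higher and 1112 to 1154 changed, with 352 lower without siMITF + IFNγ replicate 1 and 356 without siCTRL replicate 2.

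Of 207 named genes, 182 kept their direction and their side of the thresholds under every alternative run. In 23 a call was lost under at least 1 alternative, and KIT gained one under 2. BCL2, which was not called, changed sign, to -0.016 with quantile normalization, and ran from -0.018 (without siMITF + IFNγ replicate 3) to 0.146 when 1 library was left out. LSM2 had a log2 fold change of -1.06 and of -0.62 without siMITF + IFNγ replicate 2 (limma, adjusted p = 0.0524). Without siCTRL replicate 2 CERK was at -0.98, IRF4 at -0.97 and HELLS at -0.98, just short of the fold limit. Over the alternatives 27 to 31 replication genes and 23 to 32 mitotic genes were lower at an adjusted p under 0.05. With depth unknown, differences among genes of a few TPM are the least certain.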
